A study of Canis lupus familiaris with 16 samples.

Results

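The metalloproteinases that cut the extracellular matrix and shed proteins from the cell surface were followed in canine soft tissue sarcomas, together with their tissue inhibitors. Every gene of the count table was taken whose symbol is MMP, ADAM or ADAMTS followed by a number, or *TIMP1* to *TIMP4*. This gave 64 of 41818 genes, namely 22 MMP, 19 ADAM, 19 ADAMTS and 4 TIMP genes. RNA came from formalin-fixed, paraffin-embedded archive tissue of 16 tumors of client-owned dogs of various breeds. By molecular identity, 4 were fibrosarcomas (FS) from dogs aged 9 to 13 years, 6 were peripheral nerve sheath tumors (PNST, 8 to 13 years) and 6 were perivascular wall tumors (PWT, 2 to 14 years). All comparisons are between tumors, and no treatment is given for any of the dogs in the sources used here. The molecular identity of 2 tumors differed from the histological diagnosis: S1-10, a PWT by histology, was placed with PNST, and S2-08, an FS by histology, with PWT. The study made both moves from gene expression in these same libraries, so the groups are not independent of the values compared.

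MMPs (matrix metalloproteinases) are zinc-dependent endopeptidases made as inactive proenzymes, and they are secreted or held at the cell membrane. ADAMs carry a disintegrin and a metalloproteinase domain and sit in the membrane, where the active ones release growth factors, cytokines and receptor ectodomains. ADAMTS enzymes are secreted, bind matrix through thrombospondin motifs, and cut proteoglycans, procollagens and other matrix proteins. TIMPs block the active site of these enzymes. In soft tissue many of these genes are expressed by fibroblasts and other stromal cells, and in part by infiltrating leukocytes.

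Gene counts per tumor ranged from 507728 (S1-12) to 4311876 (S1-03), and the 64 genes took 0.547% (S1-11) to 1.39% (S1-09) of them. Levels are given as CPM, counts per 1000000 counts of the tumor's total after TMM scaling, which does not correct for gene length, so levels of different genes are not compared. In S1-12, the shallowest library, 3 counts give 5.52 CPM, so its values at or below that rest on 3 counts or fewer. S1-04 and S1-05 carry identical labels and were the most alike pair of tumors by rank of gene levels, with a Spearman's rho of 0.923 where other pairs reached at most 0.911, so the 6 PNST may come from fewer dogs. The labelled types were set against marker genes summed per tumor. Fibroblast markers reached 17591 to 98231 CPM in FS, 13971 to 35216 in PNST and 8996 to 20969.7 in PWT. Most of each sum came from *COL1A1*, *COL1A2* and *COL3A1*. These and *LUM* had positive log2 fold changes in FS, while *DCN* (-1.38) and *PDGFRA* (-0.89) had negative ones and were not called. Pericyte and smooth muscle markers stand for the cell types after which PWT are named. They summed to 335 to 679 CPM in PWT, 289 to 787 in PNST and 507 to 1689 in FS. Of these 8 genes, 0 were called in PWT by edgeR (3 had an unadjusted p under 0.05, all lower). In FS 3 (*ACTA2*, *CNN1* and *MCAM*) were called higher. *ACTA2* was at 213 CPM in S1-11 and 81.0 in S1-12. At 9.32 CPM in S1-02 and 29.5 in S2-06 it lay within the PWT range of 1.64 to 40.9. *RGS5* alone went the other way, with log2 fold changes of 0.41 in PWT and -0.39 in FS, and was not called. Schwann cell markers summed to 22.8 to 91.7 CPM in PNST, 16.6 to 83.3 in FS and 12.3 to 42.0 in PWT, so the 3 types overlapped. The highest FS sum was that of S1-11, where *NGFR* gave 61.4 CPM. *NGFR* was at most 2.83 CPM in PNST. Of the 3 Schwann cell genes tested in PNST, 0 were called by edgeR, and 1, *S100B*, had an unadjusted p under 0.05 (log2 fold change 2.28, adjusted p = 0.205). The type names of PWT and PNST are used here as the labels give them. Epidermal markers summed to 808 to 1383 CPM in S1-02, S1-12, S1-04, S1-05 and S2-03. The sum was 113 in S1-11 and at most 19.0 in the other 10 tumors. In S1-11 *DSP* gave 98.1 CPM of it, and *KRT5*, *KRT14* and *KRT1* were at 0. S1-11 also held skeletal muscle markers at 859 CPM and cartilage and bone markers at 568 CPM. Skeletal muscle markers were also at 423 CPM in the PWT S1-07 and 90.7 in the PWT S2-09, and at most 5.44 elsewhere. The part of these cells in the results that follow was not tested.

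Most calls among these genes were made in FS. Of the 64 genes, 45 reached 10 counts in 4 or more tumors and were tested, among 15408 genes in all. In FS against PNST and PWT pooled, 14 of the 45 were called (edgeR, adjusted p under 0.05 and a log2 fold change beyond 1 in either direction), 10 higher and 4 lower. That is 31.1% of the tested members, beside 9.46% of all genes tested, 5.78% called higher and 3.68% called lower. The difference between these shares was not tested. The median log2 fold change of the 45 was 0.50, beside 0.0039 for all genes tested. By family, 6 of 11 tested ADAM genes were called (3 higher, 3 lower), 5 of 17 ADAMTS genes (4 higher, 1 lower), 3 of 13 MMP genes (all higher) and 0 of 4 TIMP genes by edgeR, where 0 TIMP genes had an unadjusted p under 0.05 and DESeq2 called 0. In 6 members the FS values did not overlap those of the other 12 tumors, 4 lying above (*ADAMTS3*, *ADAMTS7*, *ADAM19* and *MMP15*) and 2 below (*ADAMTS5* and *ADAM17*), where 3.2% of all genes tested did not overlap. In whole tumor tissue, fewer cells of a type and less RNA per cell cannot be told apart. With tumors grouped by histology, so that S2-08 counted as FS, 3 of the 14 calls remained (*ADAMTS7*, *ADAMTS3* and *ADAM22*), beside 1.33% of all genes tested. With S1-10 and S2-08 left out 12 remained, beside 6.81% of all genes tested. Tumor names begin with S1 or S2, which may mark the 2 sequencing groups, and 3 FS, 5 PNST and 1 PWT carry S1. Each S1 tumor had 3 columns of counts and each S2 tumor had 1. With the prefix as a term in edgeR, 13 of the 14 calls remained, beside 9.46% of all genes tested, and *MMP28* was lost. Among the 9 S1 tumors alone, 8 of the 14 calls remained (9 of 43 members tested, *ADAM10* being added, beside 5.74% of all genes tested), and all 13 of the 14 genes that could be tested kept their direction. Among the 7 S2 tumors, of which S2-06 is the only FS, 7 of the 14 could be tested and *ADAMTS9* was called (beside 0.783% of all genes tested). That fit describes 1 FS tumor, with the spread taken from the other types.

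**Figure D1:**
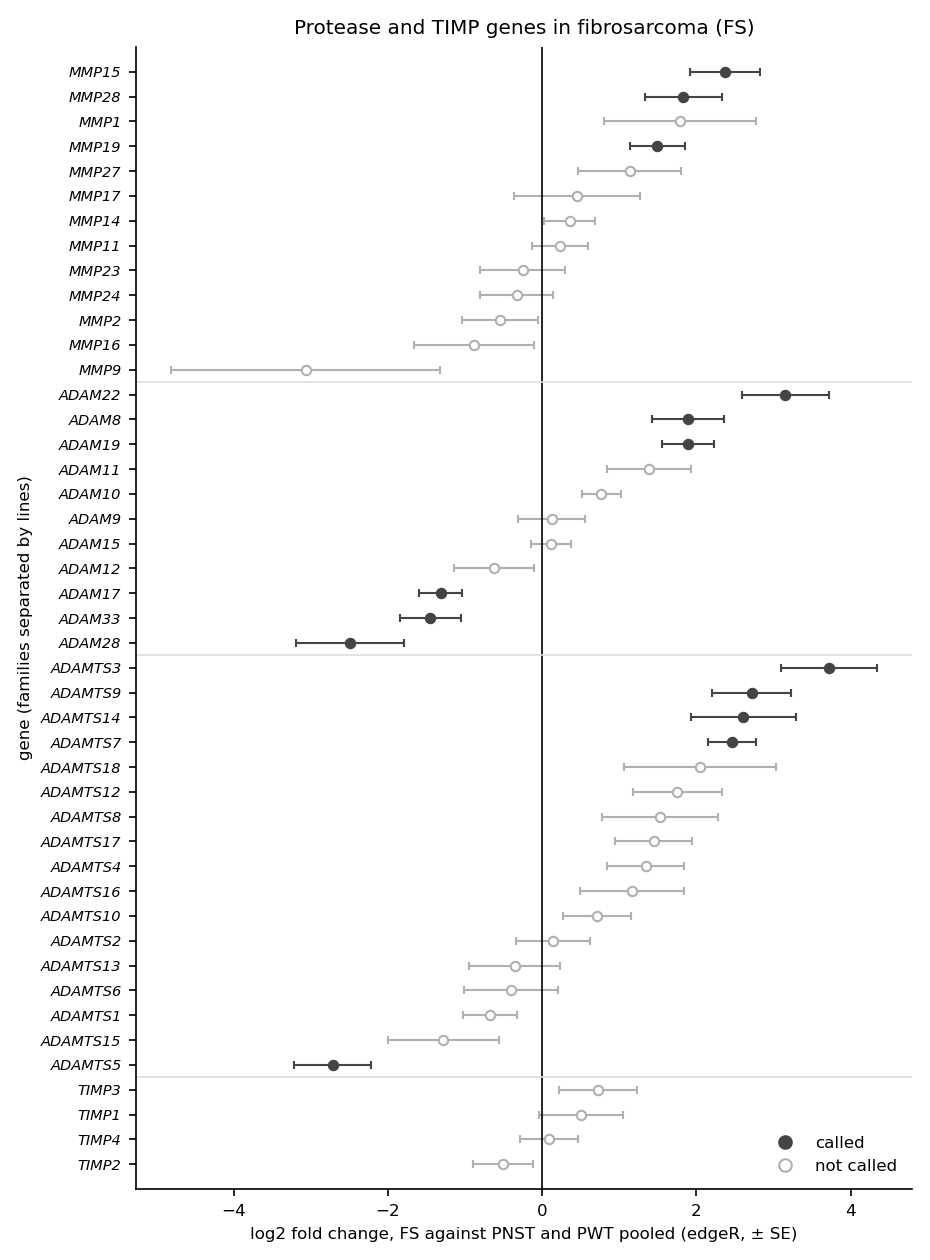
Log2 fold change (x axis, ± SE) of the 45 tested genes in 4 FS against 12 other tumors, by family (y axis). Filled points are the 14 genes called, of which *ADAMTS3* lies furthest right at 3.72 and *ADAMTS5* furthest left at -2.72, and the 4 TIMP genes are all open.

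Of the ADAMTS enzymes that process procollagen, 2 of 3 were called higher in FS, and of those that cut cartilage oligomeric matrix protein (COMP), 1 of 2. *ADAMTS3*, which removes the amino-terminal propeptide of procollagen and also processes the lymphatic growth factor VEGFC, was at 24.7 CPM in S1-02, 19.2 in S1-11, 51.6 in S1-12 and 24.2 in S2-06. It lay at 0 to 7.54 CPM in PNST (median 1.44) and 0 to 4.85 CPM in PWT (median 1.07). Each FS tumor was above each other tumor, and the rise was the largest of the 45 tested members (log2 fold change 3.72 ± 0.62 SE, adjusted p = 0.00117). All 4 FS reached 10 counts of *ADAMTS3*, which by itself meets the filter, so FS alone would have let it into the test. It was also tested in each fit that left out 1 FS tumor, so other tumors reached 10 counts too. *ADAMTS14*, the second procollagen propeptidase called, was at 24.4 CPM in S1-02, 11.0 in S1-11, 3.68 in S1-12 and 35.6 in S2-06, against 0.362 to 16.6 CPM in PNST (median 1.82) and 0 to 5.72 CPM in PWT (median 1.29). The groups overlapped, since S1-09, a PNST, had 16.6 CPM (log2 fold change 2.61 ± 0.68 SE, adjusted p = 0.0200). This gene reached 10 counts in 3 FS and 1 PNST alone, so it entered the test largely through FS. *ADAMTS2*, the third of this group, spanned 97.6 to 501 CPM in FS and 119 to 745 in PNST and was not called (log2 fold change 0.15 ± 0.48 SE, adjusted p = 0.891).

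*ADAMTS7*, which degrades COMP, was at 44.1 CPM in S1-02, 25.8 in S1-11, 55.2 in S1-12 and 13.8 in S2-06. In the other types it lay at 3.92 to 8.48 CPM in PNST (median 7.02) and 2.99 to 7.27 CPM in PWT (median 5.52). No FS value fell into the range of the other 12 tumors, and *ADAMTS7* had the smallest p of all members (log2 fold change 2.46 ± 0.31 SE, adjusted p = 0.000193, a 5.51-fold difference). *ADAMTS12*, the other COMP-cleaving enzyme, was at 41.9 CPM in S1-02, 115 in S1-11, 249 in S1-12 and 46.6 in S2-06, against 7.84 to 99.9 CPM in PNST (median 35.4) and 8.23 to 29.1 CPM in PWT (median 15.4). S1-11 and S1-12 exceeded all other tumors and S1-02 and S2-06 did not, and the gene missed the threshold (log2 fold change 1.75 ± 0.57 SE, adjusted p = 0.0572).

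Of the proteoglycan-cleaving enzymes, 2 of 6 tested were called, in opposite directions. *ADAMTS5*, the main aggrecan-cleaving enzyme of cartilage and also a versican-cleaving one, was at 106 CPM in S1-02, 223 in S1-11, 311 in S1-12 and 642 in S2-06. Every PNST and PWT was higher, at 1035 to 3727 CPM in PNST (median 1424) and 1640.0 to 3247 CPM in PWT (median 2189). The fall was 6.57-fold (log2 fold change -2.72 ± 0.49 SE, adjusted p = 0.00202), with no overlap between FS and the others, and the log2 fold change was -3.31 without S2-06. *ADAMTS9*, which cuts versican and aggrecan, moved oppositely, with 14.7 CPM in S1-02, 99.8 in S1-11, 44.2 in S1-12 and 197 in S2-06. S1-02 lay within the range of the other types, which was 4.83 to 30.2 CPM in PNST (median 12.6) and 2.99 to 26.2 CPM in PWT (median 8.58), while the other 3 FS were above it (log2 fold change 2.72 ± 0.52 SE, adjusted p = 0.00271). Without S2-06 the log2 fold change of *ADAMTS9* was 1.96, still called, and in the S1 tumors alone the call was lost (adjusted p = 0.0899). *ADAMTS1*, the neighbouring gene of *ADAMTS5*, had a log2 fold change of -0.67, adjusted p = 0.237 (0.088 for the single FS of the S2 tumors), and *ADAMTS4*, the second aggrecanase of cartilage, one of 1.35, adjusted p = 0.0916. Neither was called.

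Among the ADAM genes with a catalytic zinc site, 5 of 9 tested were called. *ADAM19*, a sheddase of neuregulins, was at 119 CPM in S1-02, 144 in S1-11, 258 in S1-12 and 134 in S2-06, against 28.4 to 93.3 CPM in PNST (median 46.6) and 13.5 to 55.7 CPM in PWT (median 38.6). All 4 FS were above all 12 other tumors (log2 fold change 1.89 ± 0.33 SE, adjusted p = 0.00163). *ADAM8*, known from leukocytes and osteoclasts, was at 22.2 CPM in S1-02, 8.77 in S1-11, 3.68 in S1-12 and 26.6 in S2-06, against 2.34 to 8.41 CPM in PNST (median 4.55) and 0.748 to 8.36 CPM in PWT (median 2.79). S1-02 and S2-06 were the 2 highest of all tumors and S1-12, at fewer than 3 counts, lay within the others' range (log2 fold change 1.90 ± 0.46 SE, adjusted p = 0.0136). The call was lost without S1-02 (adjusted p = 0.0515) and without S2-06 (0.0744). Macrophage markers summed to 1227 CPM in S1-02, the highest of any tumor, and neutrophil markers to 134 CPM in S2-06, also the highest, and their part in the *ADAM8* values was not tested. Of 8 macrophage markers, 1 (*C1QB*) was called higher in FS, and of 6 neutrophil markers, 1 passed the filter and was not called.

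*ADAM17*, the sheddase of tumor necrosis factor and of several EGF receptor ligands, was lower in FS. It was at 76.7 CPM in S1-02, 70.7 in S1-11, 46.0 in S1-12 and 100.2 in S2-06, and every other tumor was higher, at 106 to 213 CPM in PNST (median 166) and 111 to 251 CPM in PWT (median 227). The difference was 2.49-fold (log2 fold change -1.31 ± 0.28 SE, adjusted p = 0.00574). *ADAM10*, which cleaves Notch and shares substrates with *ADAM17*, was at 62.7 CPM in S1-02, 102 in S1-11, 49.7 in S1-12 and 66.5 in S2-06, against 23.6 to 42.6 CPM in PNST (median 34.4) and 36.1 to 72.5 CPM in PWT (median 42.7). Its FS values lay in the upper part of the whole range, S1-11 being the highest of 16, and it was not called (log2 fold change 0.77 ± 0.25 SE, adjusted p = 0.0573).

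*ADAM28* and *ADAM33* were also lower in FS. *ADAM28*, known from lymphocytes, was at 28.7 CPM in S1-02, 7.68 in S1-11, 9.21 in S1-12 and 14.7 in S2-06, and the others were at 37.4 to 126 CPM in PNST (median 53.2) and 10.5 to 231 CPM in PWT (median 122). The PWT tumors S2-03 and S2-11 were as low as FS (log2 fold change -2.49 ± 0.70 SE, adjusted p = 0.0287). T and B lymphocyte markers summed to 3.68 to 39.1 CPM in FS, 2.24 to 29.8 in PNST and 4.92 to 35.9 in PWT. *ADAM33*, a mesenchymal ADAM known from airway smooth muscle and fibroblasts, was at 114 CPM in S1-02, 46.1 in S1-11, 119.7 in S1-12 and 76.0 in S2-06, against 117 to 434 CPM in PNST (median 262) and 108 to 401 CPM in PWT (median 201). FS overlapped both other types at their low end (log2 fold change -1.45 ± 0.39 SE, adjusted p = 0.0243). The span of *ADAM33* overlaps that of *SIGLEC1*, a macrophage gene, in the RefSeq annotation of another assembly, and whether counting used strand is not stated in the sources used here. Both calls were lost without S1-11 (adjusted p = 0.0969 for *ADAM28* and 0.0942 for *ADAM33*) and without S2-06 (0.0714 and 0.0674), and that of *ADAM28* also without S1-12 (0.0719).

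*ADAM22* has no catalytic zinc site and is known as a neuronal receptor of LGI proteins. It was at 13.3 CPM in S1-02, 66.3 in S1-11, 75.5 in S1-12 and 4.75 in S2-06, against 0.603 to 9.11 CPM in PNST (median 4.38) and 0.547 to 6.97 CPM in PWT (median 4.30). S1-11 and S1-12 stood far above all other tumors, S1-02 was moderately above, and S2-06 lay within the range of the others (log2 fold change 3.15 ± 0.56 SE, adjusted p = 0.00178). *ADAM11*, the other tested member without a zinc site, had a log2 fold change of 1.39, adjusted p = 0.111.

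**Figure D2:**
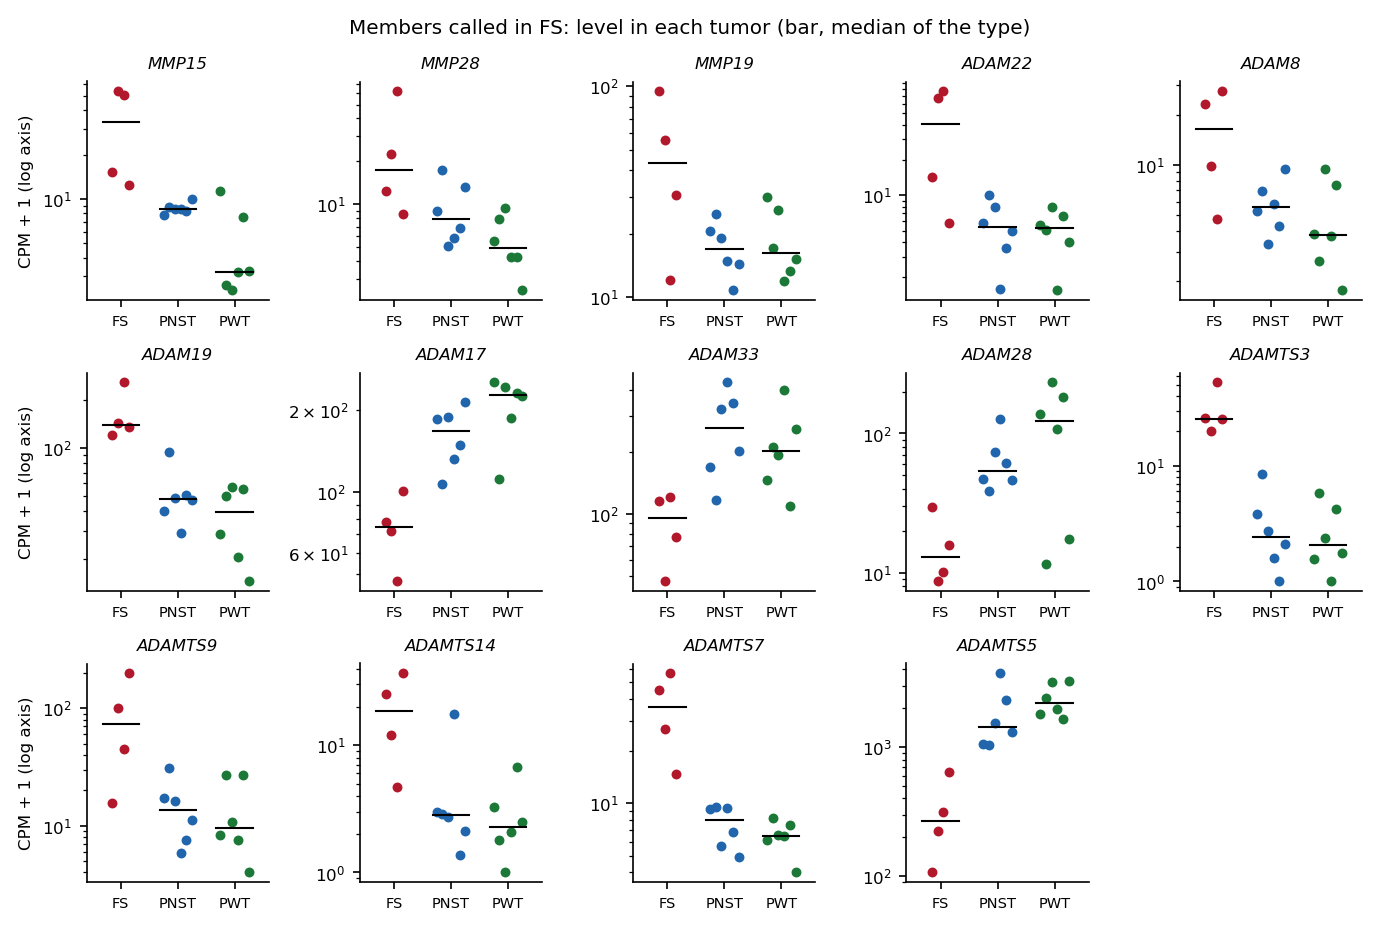
Level of each of the 14 called genes in each tumor (y axis, CPM + 1 on a log axis) by tumor type (x axis), with the median as a bar. The 4 FS lie apart from the other 12 tumors for *ADAMTS3*, *ADAMTS7*, *ADAM19*, *MMP15*, *ADAMTS5* and *ADAM17*, and overlap them for the other 8.

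The 3 MMPs called in FS are not collagenases or gelatinases. Of the 3 collagenases only 1, *MMP1*, passed the filter and was tested, while both gelatinases were tested. *MMP15*, a membrane-type MMP, was at 14.3 CPM in S1-02, 52.6 in S1-11, 49.7 in S1-12 and 11.4 in S2-06, against 6.82 to 8.97 CPM in PNST (median 7.57) and 1.39 to 10.3 CPM in PWT (median 2.22). All FS were above all others, S2-06 only just above the PWT tumor S1-07 at 10.3 CPM (log2 fold change 2.38 ± 0.45 SE, adjusted p = 0.00269). *MMP19*, which cuts basement membrane proteins, was at 93.6 CPM in S1-02, 54.8 in S1-11, 11.0 in S1-12 and 29.5 in S2-06, against 9.78 to 23.9 CPM in PNST (median 16) and 10.9 to 29.1 CPM in PWT (median 15.2). S1-12 was among the lowest tumors and the other 3 FS were the highest of the 16 (log2 fold change 1.49 ± 0.35 SE, adjusted p = 0.0112). Without S1-02 its adjusted p was 0.116 (log2 fold change 0.94). *MMP28*, also called epilysin, was at 11.5 CPM in S1-02, 21.4 in S1-11, 60.8 in S1-12 and 7.60 in S2-06, against 4.09 to 16.3 CPM in PNST (median 6.88) and 1.5 to 8.36 CPM in PWT (median 3.92), and its call (log2 fold change 1.83 ± 0.50 SE, adjusted p = 0.0246) was lost without S1-12 (log2 fold change 1.00, adjusted p = 0.221) and without S1-11 (log2 fold change 1.89, adjusted p = 0.0568). The *MMP28* call was also lost with the tumor name prefix as a term (log2 fold change 1.61, adjusted p = 0.058). It was lost as well in the S1 tumors alone (adjusted p = 0.0638) and without S1-10 and S2-08 (0.0575). S1-12, the shallowest library, gave 33 counts of *MMP28*, 27 of *MMP15* and 30 of *ADAMTS7*.

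The gelatinase *MMP2*, its activator *MMP14* and the inhibitors were not called by edgeR in any comparison. *MMP2* was at 4477 CPM in S1-02, 2280.4 in S1-11, 1409 in S1-12 and 1900.0 in S2-06, against 3556 to 5627 CPM in PNST (median 4370.4) and 292 to 4491 CPM in PWT (median 3090.0). S1-02 was as high as the PNST, the other 3 FS were lower than all PNST, and the PWT ran from below all FS into the PNST range (log2 fold change -0.55 ± 0.49 SE, adjusted p = 0.530). *MMP14*, a membrane-type MMP that activates proMMP2, was at 912 CPM in S1-02, 784 in S1-11, 1059 in S1-12 and 391 in S2-06, with 523 to 828 CPM in PNST (median 615) and 144 to 871 CPM in PWT (median 595), and was not called (log2 fold change 0.36 ± 0.33 SE, adjusted p = 0.553). In the S2 tumors alone, where S2-06 is the only FS, its log2 fold change was -0.46, and its span overlaps that of *SLC7A7* in RefSeq. *MMP9*, the second gelatinase and abundant in neutrophils and osteoclasts, had at most 4.30 CPM in FS, and single high values of 37.0 in the PNST S2-07 and 189 in the PWT S2-09, each with all other tumors of its type at or below 10.4 CPM. It had 10 counts or more in 4 tumors and was not called (log2 fold change -3.07 ± 1.74 SE, adjusted p = 0.286).

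*TIMP2*, an inhibitor that also takes part in proMMP2 activation, was at 1882 CPM in S1-02, 796 in S1-11, 948 in S1-12 and 344 in S2-06, against 1060.5 to 2348 CPM in PNST (median 1536) and 828 to 1895 CPM in PWT (median 1025). S2-06 was the lowest tumor and S1-02 lay among the PNST (log2 fold change -0.50 ± 0.39 SE, adjusted p = 0.451). *TIMP1* was at 47.0 CPM in S1-02, 93.8 in S1-11, 36.8 in S1-12 and 43.2 in S2-06, and its highest value was 144 CPM in the PNST S1-09 (log2 fold change 0.50 ± 0.55 SE, adjusted p = 0.615). *TIMP3*, which binds to matrix and also inhibits *ADAM17* and the aggrecanases, was at 39.4 CPM in S1-02, 53.7 in S1-11, 18.4 in S1-12 and 19.0 in S2-06, against 9.96 to 36.8 CPM in PNST (median 24.6) and 0.547 to 33.1 CPM in PWT (median 14.5). S2-08 stood below all others with 1 count, and FS overlapped both types (log2 fold change 0.73 ± 0.50 SE, adjusted p = 0.397). *TIMP4* ranged from 5.98 to 34.6 CPM over all tumors (log2 fold change 0.09 ± 0.38 SE, adjusted p = 0.913), with the sign turned when tumors were grouped by histology (-0.17), without S1-10 and S2-08 (-0.057) and without S1-02 (-0.027). The spans of *TIMP1*, *TIMP3* and *TIMP4* overlap those of the synapsin genes *SYN1*, *SYN3* and *SYN2* in the RefSeq annotation of another assembly. Any effect of these overlaps on the counts was not tested.

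**Figure D3:**
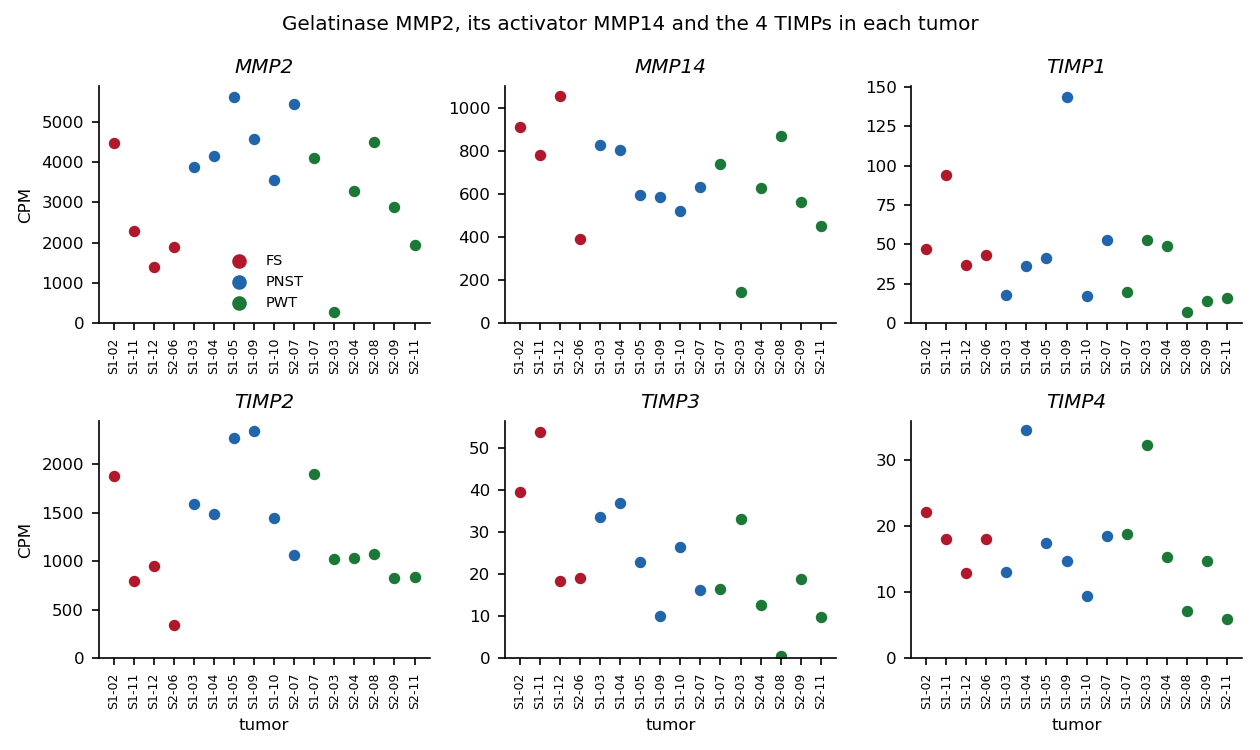
Level (y axis, CPM from 0) of *MMP2*, *MMP14* and the 4 TIMPs in each of the 16 tumors (x axis), coloured by type. The types overlap in all 6 panels, and the PWT tumor S2-03 has the lowest *MMP2* (292 CPM) and *MMP14* (144 CPM).

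Ratios of counts within a tumor do not depend on its total. They were formed after the values of these pairs had been seen, so they are given without a test. The number of *ADAM17* counts per *ADAM10* count was 1.22 in S1-02, 0.694 in S1-11, 0.926 in S1-12 and 1.51 in S2-06, and 3.05 to 6.29 in PNST and 1.77 to 6.49 in PWT. FS did not overlap the other types, whose lowest tumor was S2-03. *ADAMTS5* counts per *ADAMTS1* count were 0.696 in S1-02, 0.659 in S1-11, 2.96 in S1-12 and 1.87 in S2-06, against 2.59 to 5.97 in PNST and 4.76 to 11.7 in PWT. S1-12 lay above the lowest 2 PNST, S1-04 and S1-05.

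**Figure D4:**
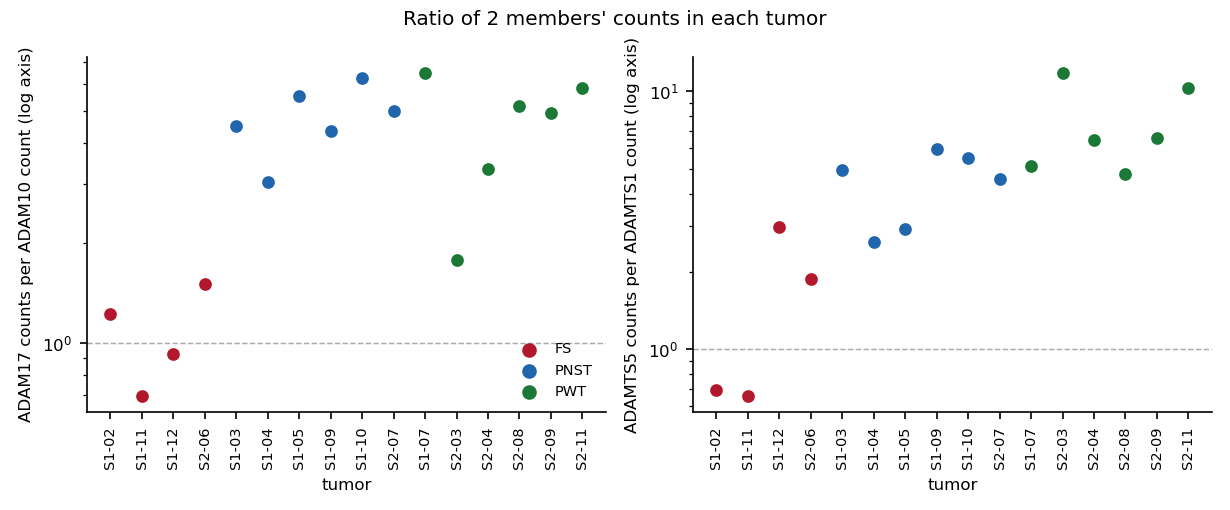
Counts of *ADAM17* per count of *ADAM10* (left) and of *ADAMTS5* per count of *ADAMTS1* (right) in each tumor (x axis), on log y axes, with a dashed line at equal counts. On the left the 4 FS lie at 0.694 to 1.51 and the lowest other tumor, S2-03, at 1.77.

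Of the 64 genes, 19 did not pass the filter: 9 MMPs (*MMP3*, *MMP7*, *MMP8*, *MMP12*, *MMP13*, *MMP20*, *MMP21*, *MMP25* and *MMP26*), 8 ADAMs (*ADAM2*, *ADAM7*, *ADAM18*, *ADAM20*, *ADAM21*, *ADAM23*, *ADAM29* and *ADAM32*), *ADAMTS19* and *ADAMTS20*. *ADAM7* and *ADAM29*, known from the male reproductive tract, had 0 counts in all 16 tumors, where a count of 0 allows up to 0.853 CPM in S1-03 and 5.52 in S1-12. Others were high in 1 or 2 FS. *MMP3* (stromelysin 1) had 121 counts in S1-02 and 91 in S2-06, 42 in the PNST S1-03 and at most 3 elsewhere. *MMP12* (macrophage elastase) had 280 counts in S2-06 and 44 in S1-02, and at most 8 elsewhere, and *MMP13* (collagenase 3) had 38 in S2-06 and at most 6 elsewhere. *MMP1*, the interstitial collagenase, passed the filter and was highest in S2-06 (233 CPM). It had 48.0 CPM in S1-02 but 1 count in S1-11 and 0 in S1-12, where 0 allows up to 5.52 CPM, and 0 to 54.9 CPM in PNST and 0.748 to 84.2 in PWT (log2 fold change 1.78 ± 0.98 SE, adjusted p = 0.272). In the RefSeq annotation *MMP13*, *MMP12*, *MMP3* and *MMP1* are consecutive protein-coding genes. Of the FS tumors, S1-02 and S2-06 held the higher counts of *MMP1*, *MMP3* and *MMP12*, and S2-06 alone held those of *MMP13*. S1-11 and S1-12 had at most 8 counts of any of the 4, S1-12 being the shallowest library. These counts are not scaled to the totals. S2-06 also held the highest counts of *ADAM21* (47), *ADAMTS19* (66) and *ADAMTS20* (29), with *ADAMTS20* at 22 counts in S1-11 and 18 in S1-02. In RefSeq the span of *ADAM20* overlaps that of *ADAM21*, and any effect on their counts was not tested. DESeq2, which kept more genes of low count, called 19 members in FS, the 14 above and *ADAM21*, *ADAMTS12*, *ADAMTS19*, *ADAMTS20* and *MMP12*, all 5 higher, beside 9.79% of the genes it tested.

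**Figure D5:**
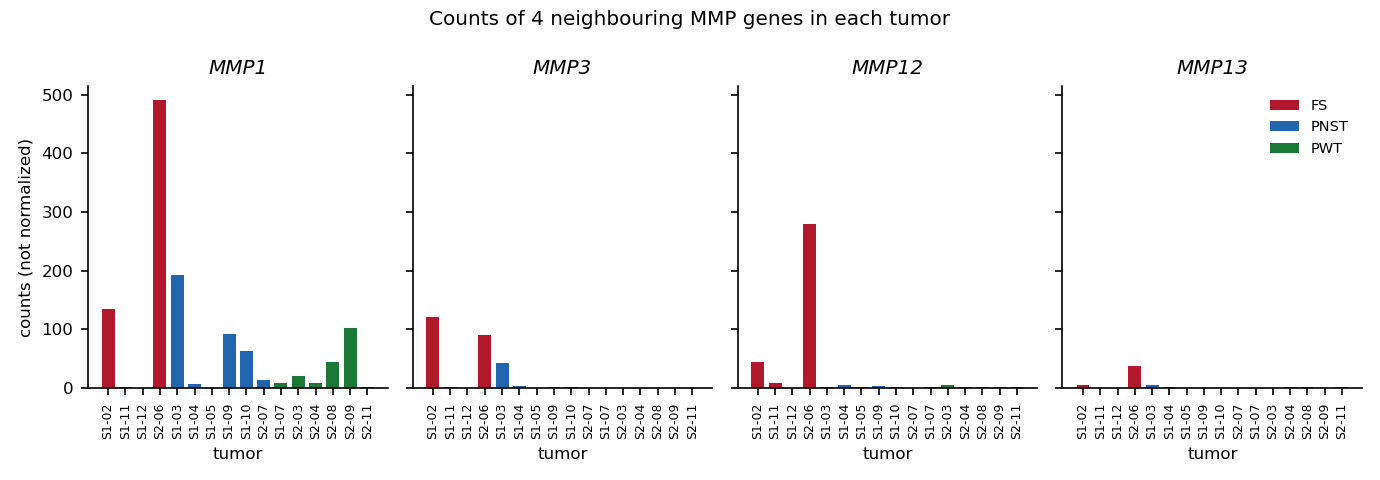
Counts (y axis, from 0, not normalized) of *MMP1*, *MMP3*, *MMP12* and *MMP13* in each tumor (x axis), coloured by type. S2-06 has the tallest bar for *MMP1*, *MMP12* and *MMP13* and S1-02 for *MMP3*, while S1-11 and S1-12 have at most 8 counts of any of the 4. Totals run from 507728 counts in S1-12 to 4311876 in S1-03, so bar heights do not rank levels.

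Genes outside the families that activate, inhibit or accompany these proteases were counted in 3 lists. Beside the 9.46% of all genes tested that were called in FS, the calls here were 3 of 19 tested activators, inhibitors and clearance genes, 3 of 12 other matrix proteases and 4 of 12 substrates. Of these 10 calls, 7 were lost without at least 1 FS tumor when each was left out in turn, a step added after seeing the data. The urokinase gene *PLAU*, whose product activates plasminogen, was at 12.2 CPM in S1-02, 19.2 in S1-11, 1.84 in S1-12 and 87.9 in S2-06, against 1.99 to 9.35 in PNST and 0 to 6.97 in PWT (log2 fold change 3.00 ± 0.62, adjusted p = 0.00452). Its call was lost without S2-06 (log2 fold change 1.61, adjusted p = 0.127). *TFPI2*, a secreted inhibitor of serine proteases such as plasmin, was at 4.30 CPM in S1-02, 12.1 in S1-11, 97.6 in S1-12 and 8.55 in S2-06, against 2.17 to 5.34 in PNST and 0 to 6.27 in PWT (log2 fold change 3.31 ± 0.67, adjusted p = 0.00403). S1-12, the shallowest library, stood far above the rest, and the call was lost without it (log2 fold change 1.53, adjusted p = 0.126). *ADAMTSL3*, an ADAMTS-like protein without a protease domain, was lower in FS (log2 fold change -2.34 ± 0.69, adjusted p = 0.0352), a call lost without S1-11, S1-12 or S2-06 (adjusted p = 0.0709 to 0.0925). The lysosomal cathepsin *CTSB* was at 9919.8 CPM in S1-02, 734 in S1-11, 261 in S1-12 and 311 in S2-06, against 255 to 392 in PNST and 210.4 to 298 in PWT (log2 fold change 3.30 ± 0.57, adjusted p = 0.00135). The dipeptidyl peptidase *DPP4* was at 796 CPM in S1-02, 21.4 in S1-11, 110.5 in S1-12 and 21.9 in S2-06, against 5.84 to 57.6 in PNST and 2.73 to 131 in PWT (log2 fold change 2.85 ± 0.81, adjusted p = 0.0307). S1-02 carried both differences, and without it neither gene was called (log2 fold change 0.62, adjusted p = 0.188 for *CTSB*, and log2 fold change 0.57, adjusted p = 0.745 for *DPP4*). The secreted serine protease *HTRA3* was lower in FS (log2 fold change -3.01 ± 0.56, adjusted p = 0.00227), at 18.1 to 42.8 CPM against 106 to 555 in PNST and 51.7 to 322 in PWT with no overlap, and stayed called without any 1 FS tumor. The 4 substrates called were higher in FS, namely *COL1A1* (log2 fold change 1.81 ± 0.51, adjusted p = 0.0282), *COL3A1* (log2 fold change 1.61 ± 0.49, adjusted p = 0.0403), the fibrillin *FBN2* (log2 fold change 4.17 ± 0.99, adjusted p = 0.0112) and the small proteoglycan *BGN* (log2 fold change 3.17 ± 0.57, adjusted p = 0.00178). *COL1A1* and *COL3A1* lost their calls without S1-11, the tumor with the highest skeletal muscle markers and cartilage and bone markers. The log2 fold change was then 0.82 (adjusted p = 0.368) for *COL1A1* and 0.39 (adjusted p = 0.667) for *COL3A1*. *FBN2* and *BGN* stayed called without any 1 FS tumor. The substrates *FBN1* (log2 fold change -1.01 ± 0.42, adjusted p = 0.129) and *DCN* (log2 fold change -1.38 ± 0.54, adjusted p = 0.107) had negative fold changes and were not called. The median log2 fold changes of the 3 lists were -0.13, 0.08 and 0.93. *COL1A1* and *COL3A1* are also fibroblast markers, of which 3 of 6 (with *LUM*) were called higher in FS, while *DCN* and *PDGFRA* (log2 fold change -0.89, adjusted p = 0.124) had negative fold changes at an unadjusted p under 0.05.

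In PNST against both other types, edgeR called 0 of 45 members, as it called 0% of all genes tested. At an unadjusted p under 0.05 stood 8 members (17.8%), 3 higher and 5 lower, beside 15.7% of all genes. The smallest p was that of *ADAMTS15*, a versican- and aggrecan-cleaving enzyme. It was at 157 CPM in S1-10 and 133 in S2-07, and at 17.3 to 39.2 in the other 4 PNST, against 3.68 to 30.2 CPM in FS (median 17.1) and 7.98 to 30.6 CPM in PWT (median 17.2). The difference rested mainly on S1-10 and S2-07, and the first of these is a PWT by histology (log2 fold change 1.82 ± 0.47 SE, adjusted p = 0.145, and a log2 fold change of 1.36 without S1-10). *ADAM10*, *ADAMTS3*, *ADAMTS7* and *ADAM22* came next, all with lower fitted values in PNST, at adjusted p = 0.196 for *ADAM10* (log2 fold change -0.75) and 0.280 to 0.301 for the others. *ADAMTS9* had a log2 fold change of -1.66, *MMP23* one of 0.94 and *TIMP2* one of 0.67 on that side of the unadjusted threshold. DESeq2 called *ADAMTS15* alone among the members, beside 1.54% of the genes it tested.

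In PWT against both other types, no member was called by edgeR, beside 2.12% of all genes tested. At an unadjusted p under 0.05 were 16 members (35.6%, beside 22.4% of all genes), 14 with a negative log2 fold change and 2 with a positive one, *ADAM17* (0.71, adjusted p = 0.158) and *ADAM28* (1.31, adjusted p = 0.203). The median log2 fold change of the 45 was -0.84, beside -0.08 for all genes tested. This comparison shares all its tumors with that of FS, so a gene high in FS enters it from the other side. *ADAMTS12* had the smallest p, at 8.23 to 29.1 CPM in PWT (median 15.4) against 7.84 to 99.9 CPM in PNST (median 35.4). The test missed the threshold (log2 fold change -2.04 ± 0.59 SE, adjusted p = 0.0664), with all 6 PWT below the 4 FS and overlapping the PNST. *MMP15* followed (log2 fold change -2.0 ± 0.64 SE, adjusted p = 0.0836), and 5 of 6 PWT were below every PNST while S1-07 was above them. *ADAM19* (-1.38, adjusted p = 0.104), *MMP28* (-1.63, adjusted p = 0.116) and *ADAMTS7* (-1.62, adjusted p = 0.119) were next by log2 fold change and edgeR's adjusted p. DESeq2 called 7 members lower in PWT (*ADAM19*, *ADAMTS12*, *ADAMTS3*, *ADAMTS7*, *MMP15*, *MMP28* and *MMP3*), beside 5.02% of the genes it tested. Of these, *MMP3* did not pass the filter used with edgeR and had 0 counts in 9 tumors. Of the pathway lists, *BSG*, an inducer of MMPs (log2 fold change -1.06 ± 0.26, adjusted p = 0.0388), and the substrates *COL1A1* (log2 fold change -2.03 ± 0.52, adjusted p = 0.0458) and *FBN2* (log2 fold change -5.46 ± 1.38, adjusted p = 0.0439) were called, all lower. Of the 6 PWT, 5 carry the prefix S2, and of the other 10 tumors 8 carry S1. With the prefix as a term, edgeR's calls in PWT over all genes fell from 327 to 0 of 15408, so those of *BSG*, *COL1A1* and *FBN2* were lost too. In that fit 1633 genes (10.6%) had an unadjusted p under 0.05, and DESeq2 with the same term, added after seeing the data, called 92 genes.

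PNST set against PWT gave 0 called members by edgeR, beside 0.169% of all genes, and 7 at an unadjusted p under 0.05 (15.6%, beside 19.6% of all genes), 6 of them higher in PNST. *ADAMTS15* had the smallest p (log2 fold change 1.77 ± 0.56 SE, adjusted p = 0.119) and was the only member that DESeq2 called, beside 3.38% of the genes it tested. *ADAMTS12* (1.44, adjusted p = 0.179), *ADAM9* (0.96, adjusted p = 0.195), *MMP17* (1.83, adjusted p = 0.212) and *MMP23* (1.13, adjusted p = 0.222) followed, as log2 fold change and edgeR's adjusted p. For *ADAM9*, a widely expressed membrane sheddase, PNST lay at 47.9 to 166 CPM and PWT at 34.4 to 72.5, with overlap. *MMP17*, a membrane-type MMP anchored by a lipid, was high in the PNST S2-07 at 32.5 CPM, and the other 5 PNST lay at 2.34 to 7.68, within reach of the PWT range of 0.748 to 7.11. The median log2 fold change of the 45 was 0.47, beside 0.02 for all genes tested.

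The remaining tested members had no call by edgeR in any of the 4 comparisons, and these are given after their values were seen. Among the ADAMs, *ADAM12*, a mesenchymal sheddase, spanned 38.7 to 320.2 CPM in FS, 121 to 501 in PNST and 44.1 to 458 in PWT (log2 fold change -0.62 ± 0.52 SE, adjusted p = 0.496 in FS), and *ADAM15* ranged from 30.7 to 89.7 CPM over all tumors. Among the MMPs, *MMP11* (stromelysin 3) ranged from 12.1 CPM (S1-11) to 78.5 (S1-03), and the 3 types overlapped. *MMP16*, a membrane-type MMP, was at 9.32 CPM in S1-02, 51.0 in S1-11, 1.84 in S1-12 and 4.28 in S2-06, against 8.76 to 91.1 in PNST and 4.18 to 60.5 in PWT, so that S1-11 alone of the FS reached the upper part of the range (log2 fold change -0.88 ± 0.78 SE, adjusted p = 0.522 in FS). *MMP27* was highest in S1-02 (41.9 CPM) and S2-06 (18.5), the FS tumors that also held *MMP3* and *MMP12*, and at 3.29 and 3.68 in the other FS. *MMP24* stayed at or below 13.8 CPM throughout.

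*ADAMTS18* varied widely within each type. It was at 3.23 CPM in S1-02, 9.32 in S1-11, 97.6 in S1-12 and 143 in S2-06, with 61.6 in the PNST S1-04 and 48.1 in the PWT S2-08 but 0 in S2-04 and S2-11 (log2 fold change 2.05 ± 0.98 SE, adjusted p = 0.199 in FS). *ADAMTS17* was above every other tumor in S1-02 (48.4 CPM) and S1-11 (80.1) and among the lowest in S1-12 (5.52, which is 3 counts). *ADAMTS16* was highest in S1-02 and S2-06, at 16.5 and 15.2 CPM. *ADAMTS10* and *ADAMTS6*, which are tied to fibrillin microfibrils, had log2 fold changes in FS of 0.71, adjusted p = 0.341 and -0.40, adjusted p = 0.739. *ADAMTS8*, the neighbour of *ADAMTS15*, reached 33.1 CPM in S1-12 from 18 counts, and *ADAMTS13*, which cuts von Willebrand factor, was at 0.748 to 34.1 CPM with no call.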

How the data were processed

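RNA of 16 canine soft tissue sarcomas was extracted by the authors from fixed tissue, depleted of ribosomal RNA and sequenced on an Ion Proton in 2 groups. The authors aligned reads to ROS-canfam-01 with STAR2 and deposited whole-number counts per gene from htseq-count, not normalized. Versions and the strand setting are not given in the sources used here. The 34 columns were mapped to tumors by name, with 0 left over. Each S1 tumor had 3 columns, which were taken as repeat runs and summed, and each S2 tumor had 1. The name prefix thus goes with the number of runs. Rows that name no gene (no feature, ambiguous or not uniquely aligned) were left out, and genes held 22.9% to 30.6% of all counted reads. Totals of 507728 to 4311876 counts limit the precision, and limits set by a count of 0 (3 counts of the total) cover counting error only.

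The test took genes that reached 10 counts in 4 or more of the 16 tumors and was run with edgeR 4.0.16 (TMM, quasi-likelihood F test, R 4.3.3), each type against both others pooled and PNST against PWT in a 3-group model, with Benjamini-Hochberg adjustment over all 15408 genes. Genes with adjusted p under 0.05 and absolute log2 fold change above 1 were called. SE is the log2 fold change divided by the square root of F. The scripts were tested on simulated counts. The members, lists and thresholds were chosen with earlier results of these data known. Genes were named if called, if among the 5 smallest p-values where fewer than 5 were called, if among the 5 highest mean CPM, or as *TIMP1* to *TIMP4*, *MMP2*, *MMP9*, *MMP14*, *ADAM10* and *ADAM17*. Others were added after their values were seen. The alternatives were RLE size factors, no count filter, DESeq2 1.42.0, the tumor name prefix as a term, S1 or S2 tumors alone, histological groups, leaving out S1-10 and S2-08, summing S1-04 with S1-05, leaving out each tumor in turn and, added after seeing the data, thinning all tumors to the lowest total. Tumors are the replicates, and 2 PNST may share a dog. RefSeq annotation of assembly UU_Cfam_GSD_1.0 gave the neighbouring and overlapping genes alone, and no sequence was read.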

Additional observations from a re-analysis of the deposited data

Results flagged for a closer look

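Of 84 sets of values (1 gene in 1 tumor type, on the log2(CPM + 1) scale), 7 held a tumor that lay far from the others of its type by Dixon's test, which chance gives in about 1 of 20. In PWT, S2-03 lay apart in 3 genes: *MMP2* at 292 CPM (other PWT 1934 to 4491), *MMP14* at 144 CPM (other PWT 453 to 871) and *ADAM17* at 111 CPM (other PWT 186 to 251). The same tumor held epidermal markers at 962 CPM, where the other PWT had at most 12.0, and the part of epidermis in these values was not tested. Its *TIMP2* lay inside the range of the other PWT, at 1019.7 CPM, so that *MMP2* gave 0.286 counts per *TIMP2* count, against 1.49 to 5.53 in the other 15 tumors.

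*TIMP2* in the PWT S1-07, the only PWT with the prefix S1, was at 1895 CPM, where the other 5 had 828 to 1074. *MMP9* in the PWT S2-09 was at 189 CPM, with at most 4.18 in the others. *TIMP3* in the PWT S2-08, an FS by histology, was at 0.547 CPM, with 9.72 to 33.1 in the others. *ADAMTS14* in the PNST S1-09 was at 16.6 CPM, with 0.362 to 1.99 in the others.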

How the results depend on the processing

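The 14 FS members fell to 9 in the S1 tumors alone, 1 in the S2 tumors alone (1 FS against 6, 31 members tested), 3 by histological groups and 5 after thinning to the lowest total (33 members tested). Of all genes tested, 5.74% were called in the S1 tumors alone, 1.33% by histological groups and 3.18% after thinning. Leaving out each tumor in turn gave 10 members (without S1-11, beside 5.98% of all genes) to 16 (without S1-04, beside 10.0%). The other alternatives gave 12 (without S1-10 and S2-08, beside 6.81%) to 20 (no filter on low counts, 62 members tested, beside 5.32%). *ADAMTS7*, *ADAMTS3* and *ADAM22* stayed past the threshold in every alternative in which they could be fitted, which leaves out the S2 tumors alone and, for *ADAMTS7* and *ADAM22*, the thinned counts, and 5 of the 14 (*ADAM8*, *ADAM28*, *ADAM33*, *MMP19* and *MMP28*) were lost without at least 1 single tumor. Over all genes, the FS calls fell from 1457 to 205 by histological groups, to 93 in the S2 tumors alone and to 319 after thinning, and the 327 PWT calls ranged from 11 (without S2-11) to 487 (without S2-07) with each tumor left out in turn. With the prefix as a term, edgeR called 0 genes in PWT (1633 at an unadjusted p under 0.05), and DESeq2 without that term called 875. For PNST, DESeq2 called 1 member, and leaving out each tumor gave 0 to 0. For PWT, DESeq2 called 7, and leaving out each tumor gave 0 to 1 (*ADAMTS12*, without S1-09, adjusted p = 0.0475). For PNST against PWT, DESeq2 called 1, and leaving out each tumor gave 0 to 0. The sign turned in FS for *MMP14* (-0.46) and *ADAMTS1* (0.088) in the S2 tumors alone, which hold a single FS, and for *TIMP4* by histological groups (-0.17), without S1-10 and S2-08 (-0.057) and without S1-02 (leaving out each tumor gave -0.027 to 0.25), and none of these genes was called. The cause was not tested. No paired analysis was possible because the labels give the tumors no replicate numbers, and each tumor belongs to 1 group. With 4 FS and a shallowest library of 507728 counts, small differences in genes of low count were not detectable.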
